A study of Mus musculus with 18 samples.

Results

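The oxidative phosphorylation subunits examined here are the nuclear-encoded proteins of respiratory complexes I to V and cytochrome c, selected by name. Gene names beginning with NDUFA, NDUFB, NDUFC, NDUFS or NDUFV, the SDH, UQCR, CYC1, CYCS and ATP5 names and the COX4 to COX8 names gave 86 rows of the 25629 rows in each table. A mean of at least 1 FPKM (fragments scaled to transcript length and library size) over the libraries of a table was reached by 82 of the 86 in cultured cells and by 81 in freshly sorted cells. NDUFA4L2, COX7B2, COX8B and COX8C were below that minimum in both tables, and COX4I2 in the fresh one. By complex, the 86 names comprised 35 of complex I, 4 of complex II, 8 of complex III, cytochrome c, 20 of complex IV and 15 of complex V. The remaining 3, COX4NB (now Emc8), ATP5S (now Dmac2l) and ATP5SL (now Dmac2), match the naming rule but are not subunits, and they are kept apart where complexes are described. Rows for the subunits that mitochondrial DNA encodes were sought under their usual names, 0 rows matched, and those subunits are not analysed here.

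Oxidative phosphorylation passes electrons from NADH through complex I, and from succinate through complex II, to coenzyme Q, then through complex III and cytochrome c to complex IV, which reduces oxygen. Complexes I, III and IV pump protons across the inner mitochondrial membrane, and complex V, the ATP synthase, uses the return flow of protons to make ATP. Resting blood stem cells are known for relying little on this pathway, and its use rises as they divide and differentiate.

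RNA came from the LSK fraction of bone marrow (Lineage-negative, cKit+, Sca1+) of C57Bl/6 mice, which holds blood stem and multipotent progenitor cells. Freshly sorted LSK cells of control mice (3 libraries) were compared with those of mice that had received 2.5 Gy of Cs-137 gamma irradiation and at least 9 weeks of recovery (3 libraries), each library pooling 3 mice. The cultured groups came from control and from irradiated mice, each without and with DL1 (4 groups of 3 libraries). Each of these cultures began with 200 sorted cells from a single mouse and lasted 6 days in hIL-6, hIL-11, hFlt3L and mSCF, and LSK cells were sorted from it once more for sequencing. The labels neither spell out DL1 nor say how it was given to the cells. Control samples carry a source name that mentions irradiation, in conflict with their titles and conditions, and were taken as controls by the latter. Nothing in the labels ties a replicate number to a mouse, litter or day, and the p-values measure the spread between these libraries.

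Depth relative to the first control library, read from the steps between low FPKM values, was between 0.756 and 1.09 in the cultured libraries, except irradiated with DL1 replicate 2 at 0.488, and between 0.644 and 1 in the fresh ones. Libraries of the same cultured group correlated at 0.988 to 0.997 across genes. Kit and Ly6a (Sca1), which define the sort, were at 34.9 and 496 FPKM in cultured controls, and Cd34 at 238. Of 10 listed LSK and stem cell markers, 7 reached a mean of 1 FPKM in cultured cells and 10 in fresh cells. Markers of maturing cells were present as well: macrophage markers (12 genes, including Csf1r, C1qa and Mrc1) summed to 2484 to 3659 FPKM in cultured controls and to 469 to 789 in fresh controls, and granulocyte markers (11 genes, including Elane and Mpo) to 4762 to 5467 and 2737 to 5150. Shares of cell types and RNA per cell cannot be told apart in such bulk libraries. The cultured and fresh tables were normalized separately, and no test was made across them.

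Promoter sequences give the regulatory context of the nuclear genes. NRF1 and GABP (an ETS factor) are transcription factors long associated with respiratory genes, and YY1 is another. RefSeq windows on GRCm38.p6, from 250 bases before to 50 bases after a start site, were found for 65 of the 79 subunits that passed the filter in culture. The NRF1 core GCGCATGC, on either strand, occurred in 11 of the 65 (16.9%), against 3.05% of all 27025 genes with such a window and 3.94% of the protein-coding ones. An ETS motif, CCGGAAGT or CCGGAAGC, occurred in 11 (16.9%, against 7.16% of all genes and 9.48% of protein-coding genes). The YY1 motif AAGATGGCG occurred in 7 (10.8%, against 1.64% of all genes and 2.14% of protein-coding genes). At least 1 of the 3 motifs was found in 24 of the 65 (36.9%, against 11.05% of all genes and 14.4% of protein-coding genes), and no 2 motifs shared bases. A match describes letters, not binding.

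The 250 bases before the start site are shown for 3 genes that hold the NRF1 core and fell after irradiation in culture, Cycs (chr6:50566570-50566819, minus strand), Ndufa8 (chr2:36049339-36049588, minus strand) and Sdhb (chr4:140961021-140961270, plus strand), and for Cox5a (chr9:57520982-57521231, plus strand), which holds none of the motifs and had the smallest p for DL1 in irradiated cells. Capitals mark the NRF1 core, here in its reverse complement GCATGCGC, which begins 60, 8 and 54 bases before the start sites of Cycs, Ndufa8 and Sdhb. Sdhb has an ETS motif 6 bases after its start as well.
Cycs: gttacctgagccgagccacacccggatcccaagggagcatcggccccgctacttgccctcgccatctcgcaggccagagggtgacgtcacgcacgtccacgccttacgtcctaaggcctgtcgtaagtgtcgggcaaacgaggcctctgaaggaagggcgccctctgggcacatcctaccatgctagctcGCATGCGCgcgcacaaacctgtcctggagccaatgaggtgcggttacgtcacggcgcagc
Ndufa8: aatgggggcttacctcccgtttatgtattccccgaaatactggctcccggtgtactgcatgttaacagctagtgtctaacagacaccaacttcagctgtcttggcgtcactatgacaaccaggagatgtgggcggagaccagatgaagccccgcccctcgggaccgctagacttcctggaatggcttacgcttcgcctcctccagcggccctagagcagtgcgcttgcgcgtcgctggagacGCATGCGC
Sdhb: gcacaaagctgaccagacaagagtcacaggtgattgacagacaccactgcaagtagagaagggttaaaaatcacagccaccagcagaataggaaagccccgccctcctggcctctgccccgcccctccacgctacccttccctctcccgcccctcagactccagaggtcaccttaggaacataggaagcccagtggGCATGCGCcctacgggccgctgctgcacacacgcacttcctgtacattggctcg
Cox5a: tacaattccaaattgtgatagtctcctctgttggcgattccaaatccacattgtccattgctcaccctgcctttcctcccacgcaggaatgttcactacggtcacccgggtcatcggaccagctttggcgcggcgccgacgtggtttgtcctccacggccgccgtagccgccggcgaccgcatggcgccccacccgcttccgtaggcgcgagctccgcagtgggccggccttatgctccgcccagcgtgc

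Subunit transcripts were among the abundant ones in LSK cells. The median member stood at percentile 92.9 of all tested genes in culture and 92.1 in fresh cells, and 54 of 82 and 57 of 81 members were in the top 10%. FPKM are values per transcript length, so levels can be set side by side between genes. Median levels in culture increased from complex I to complex V: 78.6 FPKM for complex I, 105.3 for complex II, 140.9 for complex III, 180.0 for complex IV and 209.8 for complex V. In fresh cells the medians were 63.6, 82.3, 67.8, 203.0 and 177.5 FPKM. Cytochrome c (CYCS) stood at 47.3 FPKM in culture and 30.2 in fresh cells.

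Members within a complex differed widely. Complex I ran from NDUFA11 at 13.1 FPKM to NDUFB8 at 133.6 in culture, and from NDUFA11 at 13.0 to NDUFA3 at 124.8 in fresh cells. Complex II stayed within 88.8 (SDHC, a membrane anchor) and 128.3 FPKM (SDHD, the other anchor) in culture. Complex III ran from UQCRFS1, the Rieske iron-sulfur protein, at 83.1 FPKM to UQCRH, the hinge protein, at 241.4. Complex IV ran from COX4I2 at 2.45 to COX4I1 at 449.0 FPKM. Its names include paralogs known from heart, muscle or testis. Complex V ran from ATP5L at 135.1 to ATP5B, the catalytic beta subunit of the F1 head, at 756.4 FPKM.

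**Figure D1:**
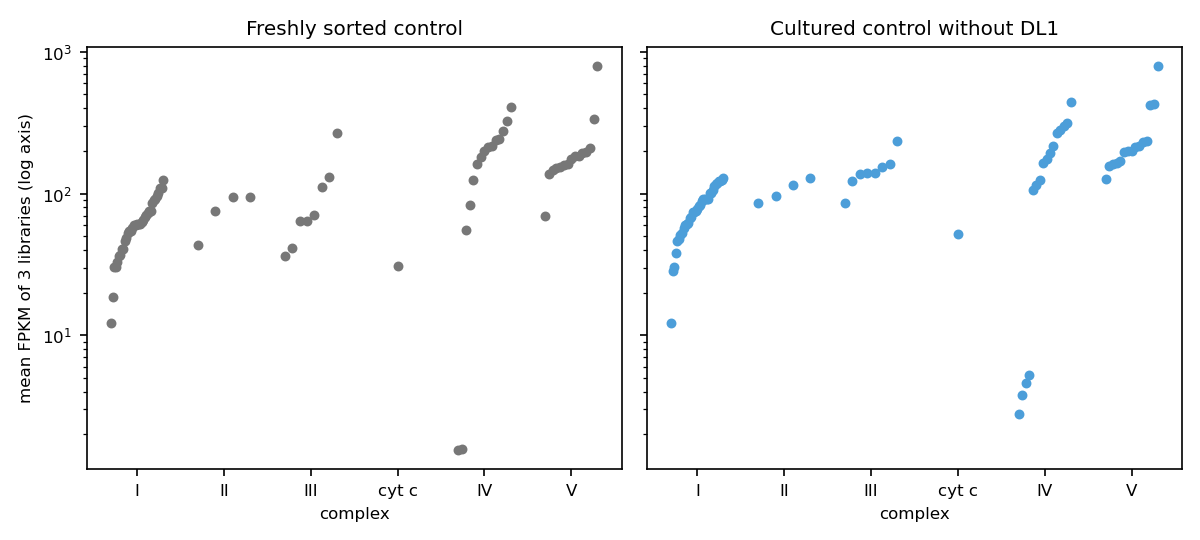
Mean FPKM of each subunit over the 3 libraries of the fresh control group (left) and of the cultured control group without DL1 (right), by complex on a log axis; each point is 1 gene. ATP5B of complex V is the highest point in both, at 791 and 792 FPKM, and complex IV holds the lowest.

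Cultured and fresh controls are given side by side without a test. The 5 highest rows of each table held 29.2% to 34.0% of all FPKM in fresh libraries and 3.50% to 4.25% in cultured ones. This lowers the percent share left for all other genes in fresh cells. Summed FPKM was not the same in the 2 tables, at 762781 to 823321 in fresh and 544392 to 576680 in cultured libraries. The lower share therefore need not carry over to the FPKM ratios below, and this was not tested. Of 78 subunits at 1 FPKM or more in both tables, 54 were listed higher in cultured controls, with a median log2 ratio of 0.29. The same ratio was not taken over all genes. A shift of the whole table therefore cannot be told apart from one of the subunits. Complex III had 7 of 8 listed higher, with a median log2 ratio of 0.94, led by the core protein UQCRC1 at 140.4 against 41.4 FPKM. ATP5A1, the alpha subunit of F1, was at 429.6 FPKM in cultured and 145.7 in fresh controls. COX6B2, the testis-type form of subunit VIb, went the other way, at 4.60 against 55.0 FPKM. In fresh controls its 3 libraries were at 61.7, 49.0 and 54.4 FPKM, and in cultured controls at 3.52, 5.48 and 4.80. COX7A2L, COX7C, ATP5E and NDUFA4 were listed lower in culture too, with log2 ratios of -0.78, -0.76, -0.75 and -0.60.

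Irradiation in fresh cells was compared to ask whether past exposure left a mark on the subunits before any culture. None of the 81 members was called with limma (adjusted p under 0.05), and 13 of all 12903 genes (0.101%) were called. An unadjusted p under 0.05 was reached by 0 members and by 886 of all genes. The median log2 fold change of the members was 0.05, against 0.0085 over all genes. It was above 0 in 57 of 81 members (70.4%) and in 52.9% of all genes. The members with the smallest p were COX6B2, NDUFB7 and ATP5D. COX6B2 was at 61.7, 49.0 and 54.4 FPKM in controls and 65.6, 72.6 and 57.5 in irradiated libraries, with overlapping ranges (log2 fold change 0.24, SE 0.11, adjusted p = 0.763). NDUFB7, an accessory subunit of complex I, had a log2 fold change of 0.27 (adjusted p = 0.771) and ATP5D, the delta subunit of F1, of 0.17 (adjusted p = 0.776). Irradiated and control libraries did not overlap for 2 members (2.47%), ATP5D and the iron-sulfur subunit NDUFS8, both higher, while 7.42% of all genes lay entirely higher and 5.28% entirely lower. SDHA, SDHB, SDHC and SDHD had log2 fold changes of -0.07, 0.16, 0.11 and -0.12, CYCS of -0.04, NDUFA4 of -0.14 and COX4I1 of 0.01, none passing the test. COX6A1, COX6A2, COX7A1, COX7A2 and COX7A2L, paralogs described with the isoforms, lay between -0.22 and 0.21 and did not pass either.

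Irradiation in cultured cells without DL1 was accompanied by lower levels of 16 of 82 members and higher levels of 2 (limma, adjusted p under 0.05). Lower calls made up 15.9% of all 12025 genes and higher calls 13.8%, so the members' share of lower calls (19.5%) lay near the background and their share of higher calls (2.44%) below it. The median log2 fold change was -0.08 for the members and -0.03 for all genes. Irradiated and control libraries did not overlap for 16 members that were lower (19.5%) and 3 that were higher (3.66%), against 20.6% and 17.5% of all genes, so the lower share was near the background here too. The members that fell included cytochrome c, subunits of the NADH-oxidizing arm of complex I, the iron-sulfur subunit of complex II, cytochrome c1 of complex III and 6 of the 15 ATP synthase subunits.

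CYCS, the mobile electron carrier that also triggers apoptosis when released, had the smallest p. Its control libraries were at 49.5, 54.4 and 51.1 FPKM and its irradiated libraries at 36.7, 42.8 and 43.7. All irradiated libraries lay below all controls, and the log2 fold change was -0.33 (SE 0.064, adjusted p = 0.00365). CYC1, cytochrome c1, which hands electrons to CYCS, was at 131, 139 and 140 FPKM in controls and 109, 115 and 131 in irradiated libraries, and fell by 0.21 on the log2 scale (adjusted p = 0.0203).

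In complex I, 2 of 7 catalytic core subunits and 3 of 28 accessory subunits fell, and 1 accessory subunit rose. NDUFV2, an iron-sulfur subunit of the NADH-oxidizing module, was at 65.8, 68.1 and 66.5 FPKM in controls and 52.9, 56.4 and 61.7 after irradiation, all below the controls (log2 fold change -0.23, SE 0.054, adjusted p = 0.00984). NDUFS1, the largest subunit of the same module, fell by 0.19 on the log2 scale (adjusted p = 0.0110). The accessory subunits NDUFA8, NDUFA9 and NDUFA12 fell by 0.22, 0.13 and 0.26 (adjusted p = 0.0199, 0.0377 and 0.0202), although the ranges of NDUFA12 overlapped. NDUFA1, a small membrane subunit needed for assembly, rose. Its controls were at 53.4, 65.1 and 65.7 FPKM and its irradiated libraries at 71.0, 73.5 and 73.1, all above the controls (log2 fold change 0.24, SE 0.072, adjusted p = 0.0243). The lowest and highest members of complex I did not pass the test, NDUFA11 at 0.02 and NDUFB8 at -0.08.

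Complexes II and III had 1 called member each. SDHB, the iron-sulfur subunit of succinate dehydrogenase, was at 92.9, 96.7 and 99.3 FPKM in controls and 80.5, 80.4 and 91.7 in irradiated libraries, all lower (log2 fold change -0.19, SE 0.054, adjusted p = 0.0202). SDHA, the flavoprotein, and the anchors SDHC and SDHD had log2 fold changes of -0.08, 0.04 and 0.01, none passing the test. In complex III, CYC1 fell, and neither the other redox subunit UQCRFS1 (-0.14, adjusted p = 0.0861), the 2 core proteins nor the 4 small subunits, with UQCRH at 0.00, passed the test.

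Complex IV had 2 members lower and 1 higher of 16. The 2 that fell are low-level paralogs. COX4I2, the hypoxia-inducible form of subunit IV, was at 2.57, 3.06 and 2.71 FPKM in controls and 0.881, 1.36 and 1.93 after irradiation (log2 fold change -0.68, adjusted p = 0.0065). COX6A2, the heart and muscle form of subunit VIa, was at 4.59, 4.61 and 6.63 FPKM in controls and 3.17, 2.44 and 4.25 after irradiation (log2 fold change -0.56, adjusted p = 0.0377). COX7A2L rose, from 121, 121 and 132 FPKM in controls to 147, 141 and 137 in irradiated libraries, without overlap (log2 fold change 0.18, SE 0.047, adjusted p = 0.0131). The abundant members COX4I1, COX6A1, COX7A2 and NDUFA4, at log2 fold changes of -0.02, -0.03, 0.07 and -0.09, and the paralog COX7A1 at 0.01 did not pass the test.

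In the ATP synthase 3 of 5 F1 subunits, 1 of 3 genes for the c ring and 2 of 4 peripheral stalk subunits fell, and 0 of 3 small membrane subunits did. ATP5F1 (now Atp5pb), subunit b of the stalk, was at 196, 203 and 202 FPKM in controls and 169, 177 and 180 after irradiation, all lower (log2 fold change -0.19, SE 0.039, adjusted p = 0.00441). ATP5B, the most abundant member, was at 778, 812 and 785 FPKM in controls and 622, 676 and 754 after irradiation (log2 fold change -0.21, adjusted p = 0.0259). The F1 subunits ATP5A1 and ATP5C1 fell by 0.14 each, the c-ring gene ATP5G3 by 0.22 and the stalk subunit ATP5O by 0.23. The ATP5O ranges overlapped. ATP5L, the lowest member, had a log2 fold change of -0.08 and did not pass the test.

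The counts depended on single libraries. Without control replicate 2, irradiated replicate 1 or irradiated replicate 2 the lower members numbered 5 each time, without control replicate 3 they numbered 8, and without irradiated replicate 3, which lay nearest the controls for CYCS, NDUFV2, SDHB and ATP5B, 28. Higher members numbered 1 without control replicate 1, control replicate 2 or irradiated replicate 2 and 4 without control replicate 3, and with only these 2 groups in the fit 0 were higher and 2 lower. CYCS passed under all 17 alternatives, and COX4I2 under the 16 that tested it. Of all called genes, 46.5% were called higher as deposited, 57.5% with median-ratio scaling and 41.5% and 40.8% with the 2 other scalings. Of the called members, 12 of 16 lower and 2 of 2 higher ones were called under every scaling.

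**Figure D2:**
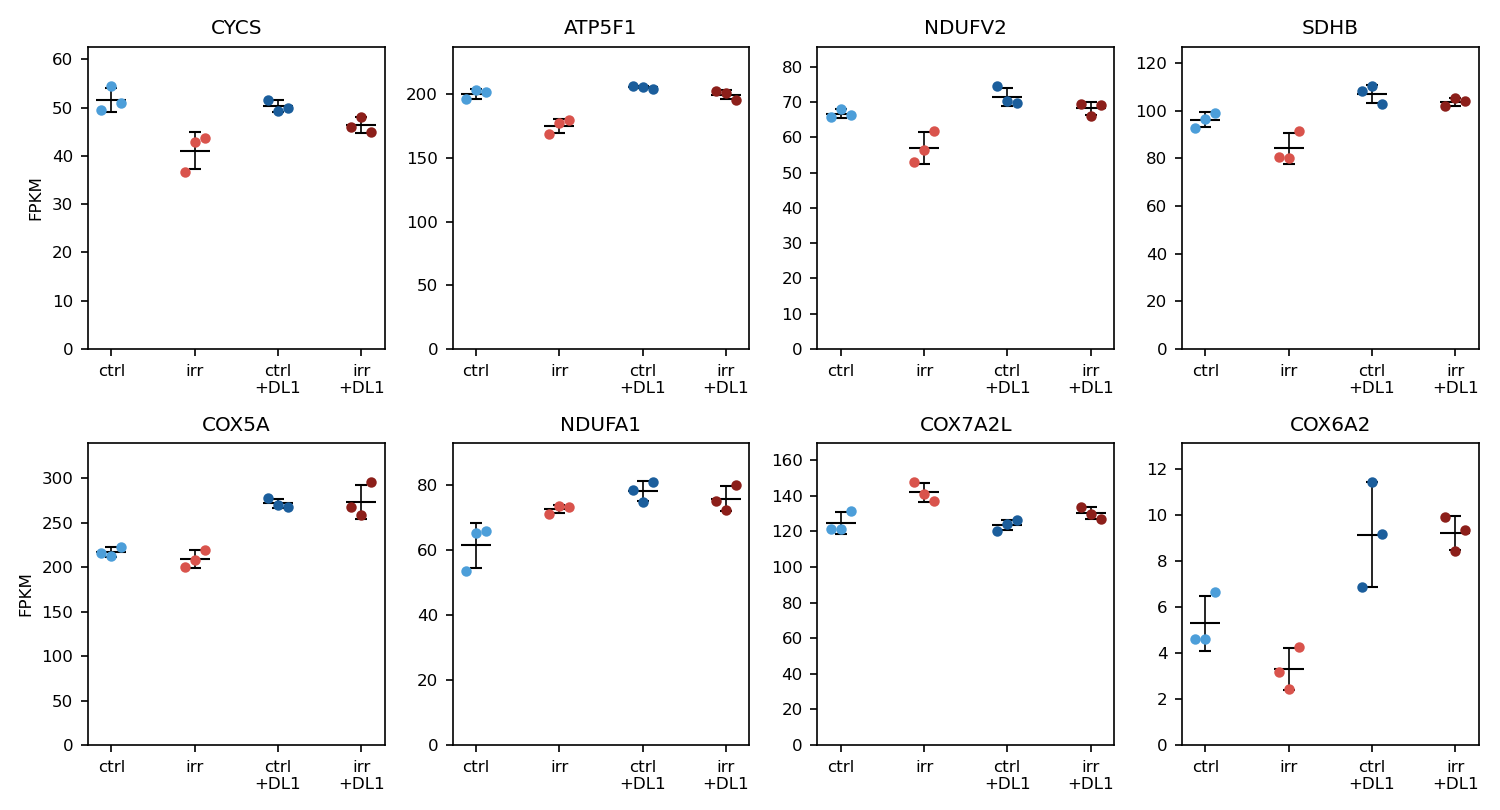
FPKM of 8 members in each of the 12 cultured libraries; points are libraries, horizontal lines group means and error bars the SD (n = 3). CYCS, ATP5F1, NDUFV2 and SDHB are lowest in irradiated cultures without DL1, and COX5A is higher in both groups with DL1 than in those without.

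Other genes of the pathway were read from lists. For irradiation without DL1, 15.9% of all genes were called lower and 13.8% higher. Without DL1, irradiation went with 8 lower and 0 higher calls among 29 assembly factors (median log2 fold change -0.13). These included NUBPL, an iron-sulfur carrier for complex I (-0.47, adjusted p = 0.0103), and NDUFAF4 (-0.31, adjusted p = 0.0162). Regulators of mitochondrial gene expression had 7 lower and 1 higher of 18. PPRC1, a coactivator of the PGC-1 family (-0.34, adjusted p = 0.00173), GABPB1, a GABP subunit (-0.28), PPARGC1B (-0.37) and TFAM, which packages mitochondrial DNA (-0.19), fell. Among 25 genes of the citrate cycle and pyruvate dehydrogenase, 9 fell and 2 rose. FH1, fumarase (-0.26), and IDH3A (-0.30) fell, and PDK2, a kinase that inactivates pyruvate dehydrogenase (0.49), and BRP44L, a pyruvate carrier subunit (0.23), rose. Of 11 genes of adenine nucleotide exchange and ATP synthase control, 4 fell, among them the ATP/ADP carrier SLC25A4 (-0.34) and the outer membrane channels VDAC1 (-0.20) and VDAC3 (-0.18), and 1 rose, UCP2, an uncoupling protein homolog (0.40). Other electron donors and coenzyme Q synthesis had 5 lower and 2 higher of 19, with COQ3 (-0.22) and DHODH (-0.27) lower and ETFB (0.31) and SQRDL (0.37) higher. The mitochondrial ribosome had 18 lower and 0 higher of 73, with a median log2 fold change of -0.15. In fresh cells 0 genes of these lists were called.

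Other processes moved in the same comparison. Of 20 cell cycle genes 18 fell (median log2 fold change -0.29), and their summed level was 2043 to 2195 FPKM in controls and 1551 to 1885 in irradiated libraries. All 12 macrophage markers rose (median 1.07), from sums of 2484 to 3659 FPKM to 4854 to 7410. Granulocyte markers rose in 10 of 11 (median 0.63), from 4762 to 5467 FPKM to 8423 to 10945. Mast cell and basophil markers rose in 6 of 9, from 175 to 189 FPKM to 372 to 404, and LSK markers fell in 3 of 7 tested. Megakaryocyte markers rose in 3 of 5 tested, from 103 to 127 FPKM to 225 to 296, and natural killer and cytotoxic markers in 2 of 4, from 23.1 to 25.6 FPKM to 47.4 to 64.5. The 1 erythroid marker tested fell, and the erythroid list went from 29.4 to 35.4 FPKM to 9.76 to 23.3. T cell markers rose in 1 of 4, dendritic cell markers fell in 1 of 6, and the 1 B cell marker tested fell. Of the macrophage, granulocyte, mast cell, megakaryocyte, erythroid and LSK markers 0 were at 0 in a whole group. The part of these cells and processes in the subunits' result was not tested. Transcript length moved with the members' fold changes as well: the 16 that fell had a median annotated transcript length of 1239 bases and the 64 uncalled members of 681.5. Over the 82 members the Spearman correlation of fold change with length was -0.42, against 0.015 over the 10452 genes with a length, a description across genes that share libraries.

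Irradiation in the presence of DL1 gave no called member (0 of 82), while 378 genes (3.14%) were called in all. The median log2 fold change was -0.04 for members and -0.02 for all genes. An unadjusted p under 0.05 was reached by 4 of 82 members, COX4I2, NDUFS1, NDUFA5 and COX7A1, and by 2233 of all 12025 genes. COX4I2 was at 3.88, 4.06 and 2.88 FPKM in controls with DL1 and 1.77, 2.37 and 1.94 in irradiated cultures with DL1, all lower (log2 fold change -0.60, adjusted p = 0.0516). It passed with a pseudocount of 5, with 2 of the scalings and with only these 2 groups in the fit. NDUFS1 had a log2 fold change of -0.14 (adjusted p = 0.149) and NDUFA5, an accessory subunit of complex I, of -0.18 (adjusted p = 0.262). Libraries did not overlap for 17 members that were lower (20.7%) and 1 that was higher (1.22%), COX7A2L, against 17.5% and 15.6% of all genes. CYCS was at 51.7, 49.3 and 49.9 FPKM without irradiation and 45.9, 48.1 and 45.0 with it (log2 fold change -0.12, adjusted p = 0.353). SDHA, SDHB, SDHC and SDHD lay between -0.07 and -0.03 and NDUFA4, COX4I1, COX6A1, COX6A2, COX7A2 and COX7A2L between -0.10 and 0.07, none passing the test. Among the pathway lists 1 gene was called, SQRDL, a sulfide oxidase that feeds coenzyme Q (0.46, adjusted p = 0.0164). Cell cycle genes had 0 of 20 called, mast cell markers rose in 2 of 9, LSK markers fell in 2 of 7, and macrophage markers rose in 6 of 12 and granulocyte markers in 9 of 11. The sums of the last 2 lists went from 658 to 878 and 3449 to 3602 FPKM in controls with DL1 to 1157 to 1466 and 5208 to 6550.

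The test of whether irradiation acted differently with and without DL1, the interaction, called 0 of 82 members and 9 of 12025 genes (0.0748%). An unadjusted p under 0.05 was reached by 4 members, NDUFA1 (-0.29, adjusted p = 0.349), ATP5F1 (0.15, adjusted p = 0.358), CYCS (0.21, adjusted p = 0.445) and COX6A2 (0.59, adjusted p = 0.450). Over all 12025 genes, 1256 reached it. The members called without DL1 and not called with it were therefore not shown to differ between these conditions.

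DL1 in control cultures was accompanied by higher levels of 23 of 82 members and lower levels of 0 (limma, adjusted p under 0.05). Of all 12025 genes 13.9% were higher and 12.3% lower, against 28.0% of the members higher. The median log2 fold change was 0.12 for members and 0.04 for all genes. For 43 members (52.4%) the DL1 libraries all lay above those without DL1, against 29.4% of all genes, and for 0 members all below, against 18.9%. Complex IV gave 10 of 16 higher calls and complex I 9 of 35 (1 of 7 core and 8 of 28 accessory subunits). Complex V gave 2 of 15, complexes II and III gave 0 of 4 and 0 of 8, and 2 of the 3 names that are not subunits were higher.

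COX5A, a structural subunit of complex IV, was at 216, 213 and 223 FPKM without DL1 and 278, 270 and 268 with it, without overlap (log2 fold change 0.32, SE 0.055, adjusted p = 0.000876). COX7A1, the heart and muscle form of subunit VIIa, was at 3.69, 4.0 and 3.61 FPKM without DL1 and 7.12, 5.25 and 6.73 with it (log2 fold change 0.62, adjusted p = 0.000853). COX6A2 was at 4.59, 4.61 and 6.63 FPKM without DL1 and 6.84, 11.4 and 9.14 with it (log2 fold change 0.68, adjusted p = 0.0154). Abundant subunits of complex IV rose by less: COX7B by 0.23 (adjusted p = 0.0135), NDUFA4, which was named for complex I and is now placed in complex IV, by 0.25 (adjusted p = 0.0235), COX6A1 by 0.21 and COX7A2 by 0.19. COX4I1 (0.08), COX4I2 (0.28) and COX7A2L (-0.01) did not pass the test.

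In complex I, NDUFB2 was at 44.5, 47.2 and 52.2 FPKM without DL1 and 68.0, 66.8 and 56.6 with it (log2 fold change 0.40, SE 0.081, adjusted p = 0.0029). NDUFA1 was at 53.4, 65.1 and 65.7 FPKM without DL1 and 78.5, 74.7 and 80.7 with it (log2 fold change 0.35, adjusted p = 0.00356). Both are small accessory subunits, and in both all DL1 libraries lay above all others. NDUFB8, NDUFB11, NDUFA2 and NDUFA7, accessory subunits too, rose by 0.16, 0.21, 0.22 and 0.26, and NDUFA11 had 0.21 without passing (adjusted p = 0.0516). ATP5SL, one of the names that are not subunits, rose by 0.28. CYCS did not pass the test, at -0.04, nor did SDHA (0.00), SDHB (0.15, adjusted p = 0.0574), SDHC (0.10), SDHD (0.02), UQCRH (0.08), UQCRFS1 (0.02), ATP5B (0.01) or ATP5L (0.25, adjusted p = 0.0768).

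COX5A, NDUFA1 and NDUFB2 passed under all 17 alternatives, and COX7A1 under the 16 that tested it. The count of 23 fell to 15 with median-ratio scaling, under which higher calls over all 12025 genes fell from 1675 to 1258. The share of higher calls among all called genes went from 53.1% to 42.3% (43.7% and 43.8% with the other scalings). Leaving out control replicate 1 gave 4 higher members, control replicate 2 gave 13, and leaving out control with DL1 replicates 1, 2 and 3 gave 6, 7 and 12. The 23 higher members had a median transcript length of 659 bases and the 59 uncalled ones 838. In this comparison the Spearman correlation of fold change with length was -0.40 across members, against -0.16 across all genes.

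**Figure D3:**
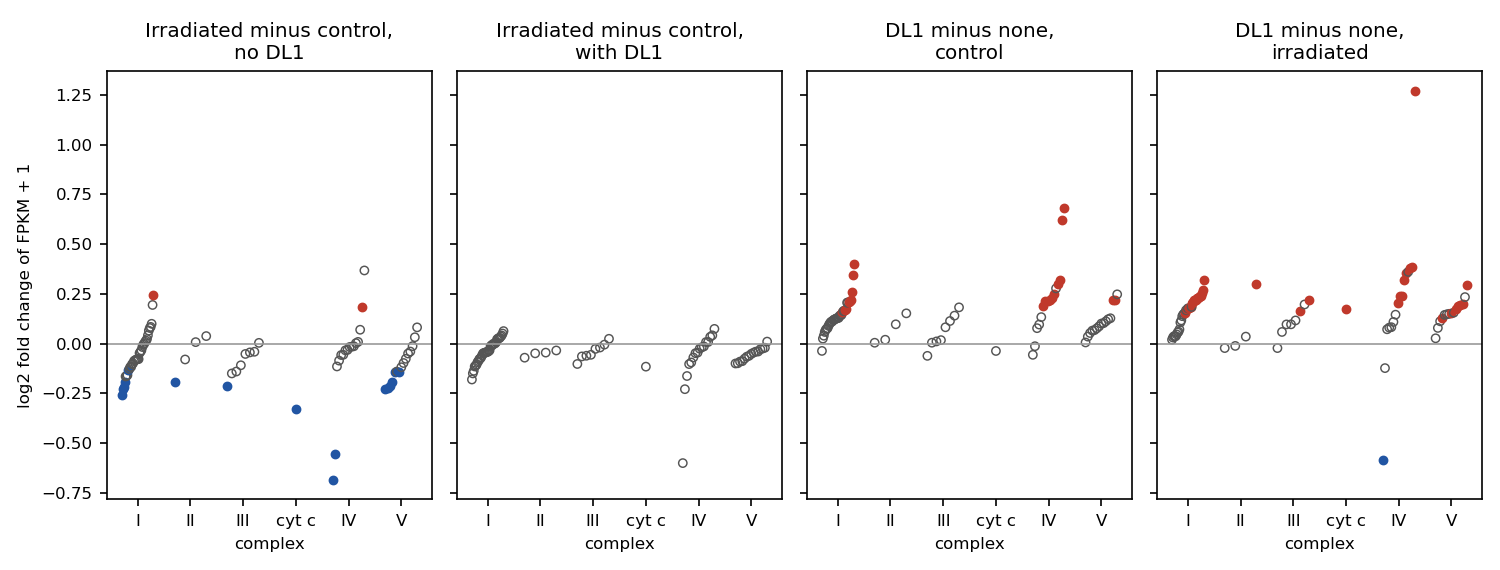
Log2 fold change of each subunit by complex in the 4 comparisons of cultured groups, on the log2(FPKM + 1) scale; each point is 1 gene, filled red where called higher, filled blue where called lower and open where not called. With DL1 in control cells the called subunits sit in complexes I, IV and V, and with DL1 in irradiated cells also in complexes II and III and cytochrome c.

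DL1 in irradiated cultures was accompanied by higher levels of 39 of 82 members and a lower level of 1. Of all genes 24.4% were higher and 17.0% lower, against 47.6% and 1.22% of the members. The median log2 fold change was 0.17 for members and 0.06 for all genes. All DL1 libraries lay above the others for 47 members (57.3%), against 28.7% of all genes, and all below for 1 (1.22%), against 19.7%. Complex I gave 18 of 35 higher calls (4 of 7 core and 14 of 28 accessory subunits), complex IV 8 of 16 and complex V 7 of 15 (2 of the F1 head, 2 of the c ring, 2 of the peripheral stalk and 1 small membrane subunit). Complex III gave 2 of 8 (UQCR, now Uqcr11, and UQCRB), complex II 1 of 4 (SDHB), and CYCS rose. This comparison uses the same 3 irradiated libraries as that of irradiation without DL1, and the comparison of DL1 in control cells uses the same 3 control libraries.

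COX5A had the smallest p, at 200, 208 and 219 FPKM without DL1 and 267, 259 and 296 with it (log2 fold change 0.39, SE 0.055, adjusted p = 0.000165). SDHB was at 80.5, 80.4 and 91.7 FPKM without DL1 and 102, 105 and 104 with it (log2 fold change 0.30, SE 0.054, adjusted p = 0.000978). ATP5F1 was at 169, 177 and 180 FPKM without DL1 and 203, 201 and 196 with it (log2 fold change 0.19, adjusted p = 0.00247). NDUFV2 was at 52.9, 56.4 and 61.7 FPKM without DL1 and 69.4, 66.1 and 69.1 with it (log2 fold change 0.26, adjusted p = 0.0027). In these 4 genes every DL1 library lay above every library without DL1. CYCS was at 36.7, 42.8 and 43.7 FPKM without DL1 and 45.9, 48.1 and 45.0 with it (log2 fold change 0.17, adjusted p = 0.0451), a call lost under 11 of 17 alternatives, among them the fit of these 2 groups with the replicate number as a block (adjusted p = 0.0801).

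COX6A2 had the largest log2 fold change of the called members, from 3.17, 2.44 and 4.25 FPKM to 9.88, 8.41 and 9.34 (log2 fold change 1.27, SE 0.18, adjusted p = 0.000182). Its exons overlap those of ITGAD (integrin alpha D) on the other strand. The strand setting of the counting is not stated, so reads of the 2 genes cannot be told apart where they overlap. ITGAD was at 0.354 ± 0.039 FPKM in control, 0.210 ± 0.11 in irradiated, 2.47 ± 0.41 in control with DL1 and 2.54 ± 0.59 in irradiated with DL1 (SD, n = 3). NDUFA8, COX7B, ATP5J2 (subunit f of the synthase), NDUFB8 and the non-subunits COX4NB and ATP5SL rose by 0.18 to 0.32. COX7A1 rose by 0.38 (adjusted p = 0.0122) and NDUFA4 by 0.24 (adjusted p = 0.0194). COX6B2 was the 1 lower member, at 4.56, 7.31 and 6.89 FPKM without DL1 and 3.16, 3.39 and 4.89 with it, with overlapping ranges (log2 fold change -0.59, adjusted p = 0.0195). It did not pass without irradiated replicates 2 or 3 or without irradiated with DL1 replicates 1 or 2, nor was it tested with a minimum mean of 5 FPKM.

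SDHA (0.04), SDHC (-0.01), SDHD (-0.02), COX4I1 (0.08), COX4I2 (0.36, adjusted p = 0.0714), COX6A1 (0.15), COX7A2 (0.07), COX7A2L (-0.12, adjusted p = 0.0527), UQCRH (0.06), UQCRFS1 (0.10), ATP5B (0.14, adjusted p = 0.0872), ATP5L (0.23) and NDUFA11 (0.18) did not pass the test. With the replicate number as a block in a fit of these 2 groups, ATP5L (adjusted p = 0.041) and NDUFA11 (adjusted p = 0.046) did. Over all 12025 genes, median-ratio scaling took higher calls from 2931 to 2029, and their share among all called genes from 58.9% to 45.2%. The count of 39 members fell to 19 with that scaling, and to 25 with only these 2 groups in the fit. It was 19 without irradiated replicate 1, 25 without irradiated replicate 2, and 25, 24 and 24 without irradiated with DL1 replicates 1, 2 and 3. The last of these includes replicate 2, the library of lowest depth. Every scaling kept 19 of the 39. The 39 higher members had a median transcript length of 838 bases and the 42 uncalled ones 737, the reverse of DL1 in control cells. The Spearman correlation of fold change with length was -0.083 across members, against -0.11 across all genes.

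The other pathway lists were read for DL1 too. Of all genes, 13.9% were called higher and 12.3% lower in control cells, and 24.4% and 17.0% in irradiated cells. In irradiated cells the shares of assembly factors and of regulators called higher lay near that background. In control cells with DL1, 0 of 29 assembly factors, 0 of 11 genes of nucleotide exchange and 5 of 73 mitochondrial ribosome genes rose. HIF1A, the oxygen-regulated transcription factor, was the 1 regulator called of 18 and fell by 0.38 (adjusted p = 0.00449). In the citrate cycle list 6 of 25 rose, including PDK3 (0.36), FH1 (0.27) and BRP44 (0.35), and PDK2 fell by 0.54. Of 19 electron donor and coenzyme Q genes COQ2 rose (0.24) and SQRDL fell (-0.99). In irradiated cells with DL1, 7 of 29 assembly factors rose, including the copper chaperone COX17 (0.35), and SCO1 fell by 0.17. Of the regulators PPRC1 (0.24), TFAM (0.16) and NRF1 (0.15) were among 4 of 18 that rose, and HIF1A fell by 0.54. The citrate cycle list had 10 higher and 3 lower of 25, with FH1 at 0.51, IDH2 at 0.40, PDK3 at 0.42 and PDK2 at -0.75. Nucleotide exchange had 5 higher and 1 lower of 11, with USMG5 (0.34) and ATPIF1 (0.21) among the higher and UCP2 lower (-0.32). Electron donors had 3 higher and 2 lower of 19, and 24 of 73 mitochondrial ribosome genes rose.

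DL1 went with other changes in both backgrounds. Cell cycle genes rose in 4 of 20 in control cells and in 20 of 20 in irradiated cells, with sums of 2270 to 2278 FPKM in control with DL1 and 2115 to 2145 in irradiated with DL1. Macrophage markers fell in 11 of 12 and in 12 of 12, with sums of 658 to 878 FPKM and 1157 to 1466. Granulocyte markers fell in 9 of 11 and 11 of 11, with sums of 3449 to 3602 and 5208 to 6550 FPKM. Markers of natural killer and cytotoxic cells rose in 4 of 4 tested and 3 of 4, and T cell markers in 3 of 4 in each, with the remaining T cell marker lower in irradiated cells. Megakaryocyte markers had 1 higher and 1 lower of 5 in control cells and 1 higher and 3 lower in irradiated cells, where their sum went from 225 to 296 FPKM without DL1 to 87.4 to 109. Mast cell and basophil markers had 2 higher of 9 in control cells and 1 higher and 4 lower in irradiated cells. Dendritic cell markers rose in 2 of 6 in each, LSK markers had 2 and 3 higher and 1 and 1 lower of 7, the 1 erythroid marker tested fell in each, and the 1 B cell marker tested rose in irradiated cells. The part of these cell types and of the cell cycle in the subunits' result was not tested.

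Across the 4 cultured groups, 59 of 82 members had their highest mean in control with DL1, and 60 of 82 their lowest in irradiated without DL1. This order was not counted over all genes. With DL1, 59.3% of all genes in control and 60.9% in irradiated cells had a log2 fold change above 0, against 92.7% of members in each. For irradiation without and with DL1 the shares were 44.2% and 44.6% of all genes, against 24.4% and 23.2% of members. Summed over complexes I to V and cytochrome c, without the 3 names that are not subunits, subunit transcripts made up 1.97 ± 0.059% of all FPKM in cultured controls, 1.86 ± 0.091% in irradiated, 2.09 ± 0.031% in control with DL1 and 2.04 ± 0.024% in irradiated with DL1 (SD, n = 3). In fresh cells the share was 1.19 ± 0.016% in controls and 1.22 ± 0.082% after irradiation. Without the 5 highest rows of each table it was 1.74 ± 0.038% in fresh controls and 2.05 ± 0.060% in cultured ones, so the printed distance between the tables depends on those rows. Complex V went from 0.70 ± 0.018% in controls to 0.635 ± 0.039% in irradiated cultures, and complex IV from 0.486 ± 0.019% to 0.536 ± 0.013% in controls with DL1. Complex II lay between 0.0728% and 0.0775% in the 4 groups. These sums are descriptions without a test.

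**Figure D4:**
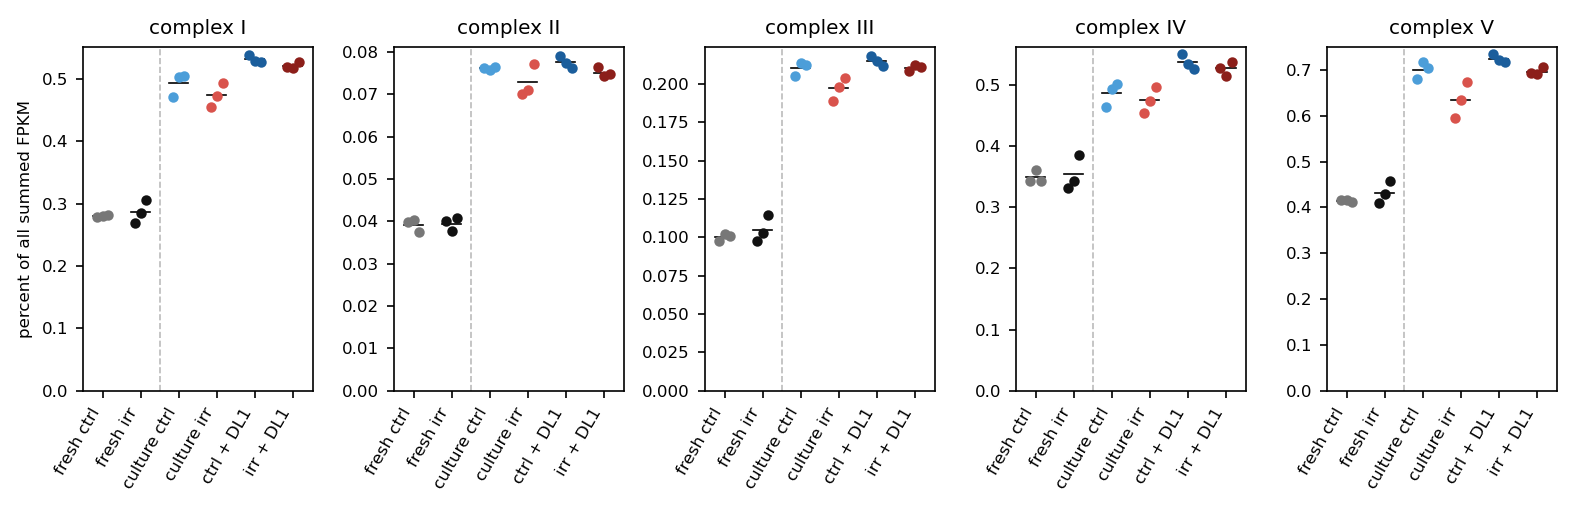
Share of all FPKM held by the members of each complex, in percent, by group; points are libraries, horizontal lines group means, and a dashed line parts the fresh from the cultured table. Complex V holds the largest share, 0.70% in cultured controls and 0.415% in fresh controls (0.729% and 0.610% without the 5 highest rows of each table).

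Several complex IV subunits and the c ring of the ATP synthase have alternative genes, whose balance is described by shares of FPKM. COX6B2 held 21.6 ± 3.16% of the sum of COX6B1 and COX6B2 in fresh controls and 24.3 ± 4.03% in fresh irradiated cells, against 1.5 ± 0.24% in cultured controls and 1.18% to 2.07% in the other cultured groups (SD, n = 3). COX6A2 held 1.84 ± 0.31% of its pair with COX6A1 in cultured controls, 1.18 ± 0.26% in irradiated, 2.75 ± 0.72% in control with DL1 and 2.96 ± 0.25% in irradiated with DL1. COX7A1 held 3.45 ± 0.40%, 3.31 ± 0.34%, 4.99 ± 0.66% and 4.32 ± 0.62% of its pair with COX7A2 in the same order. COX4I2 never exceeded 0.770% of its pair with COX4I1 as a group mean. The mature c subunit is the same protein from ATP5G1, ATP5G2 and ATP5G3, which differ in their import sequences. ATP5G3 held 56.2 ± 0.12% of their sum in cultured controls, 53.6 ± 0.86% in irradiated, 55.6 ± 0.74% in control with DL1 and 54.8 ± 0.93% in irradiated with DL1, and 38.8 ± 2.37% in fresh controls.

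**Figure D5:**
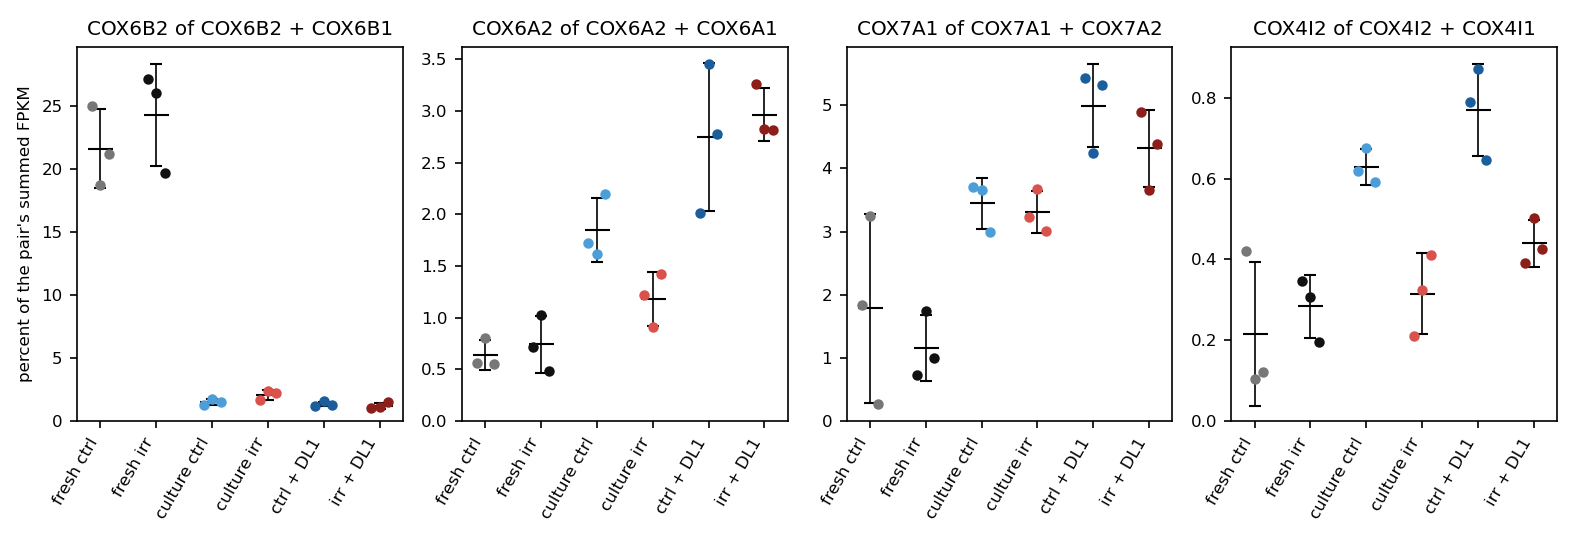
Share of the minor isoform in the summed FPKM of its pair, in percent, by group; points are libraries, horizontal lines group means and error bars the SD (n = 3). COX6B2 is at 21.6% in fresh controls and 1.5% in cultured controls.

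Of the members under the filter, COX7B2 was listed at 0 in all 18 libraries, COX8B in all 12 cultured ones and COX8C in all 12 cultured ones. NDUFA4L2, a paralog of NDUFA4 that is induced by hypoxia, was at 2.54, 2.48 and 1.47 FPKM in cultured controls, 0.218, 0.958 and 1.2 in irradiated, 0.200, 0.287 and 0.324 in control with DL1 and 0.0412, 0.240 and 0.222 in irradiated with DL1. Controls without DL1 lay above every other cultured library. Without the filter it fell after irradiation (log2 fold change -0.84, adjusted p = 0.0223) and with DL1 in control cells (-1.30, adjusted p = 0.00177), and had -0.58 with DL1 in irradiated cells (adjusted p = 0.0624). Its exons overlap SHMT2 on the other strand, at 168 ± 7.4, 130 ± 18, 184 ± 2.3 and 163 ± 6.3 FPKM in the 4 groups in the same order (SD, n = 3).

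Of the 86 names, 25 overlap exons of another protein-coding gene in GENCODE and 10 have a named pseudogene, so their counts may be shared. The latter include members that fell after irradiation without DL1: CYCS, with 3 named pseudogenes, and ATP5F1, ATP5C1 and NDUFA12, with 1 each. NDUFS1 overlaps EEF1B2, an abundant elongation factor gene at 433 ± 19 FPKM in controls and 415 ± 28 after irradiation, NDUFB2 overlaps BRAF at 7.14 ± 0.55 FPKM in controls and 6.14 ± 0.23 with DL1, and COX4NB overlaps COX4I1 (SD, n = 3). By promoter, 4 of the 11 members that fell after irradiation without DL1 and have a window held 1 of the 3 motifs (Cycs, Ndufa8, Ndufa9 and Sdhb), as did 20 of the 52 uncalled ones. With DL1 in control cells 4 of 17 higher members held one and 20 of 48 uncalled ones, and with DL1 in irradiated cells 8 of 30 and 16 of 34.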

How the data were processed

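RNA of LSK cells was sequenced from 18 libraries in 6 groups of 3. The authors deposited FPKM per gene in 1 table for the fresh and 1 for the cultured libraries. Total RNA was extracted with miRNeasy and libraries made with TruSeq RNA v2 reagents, per the labels' protocols. TopHat 1.4.1, Cufflinks 1.3.0, Cuffdiff (version not given) and the human build hg19 are named per the submitters' processing notes, although the cells are mouse. Strand setting, annotation and scaling between libraries are not given in the sources used here.

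Values were analysed as log2(FPKM + 1) for genes with a mean of at least 1 FPKM (12903 fresh, 12025 cultured) with limma (version 3.58.1, under R 4.3.3; two-sided, with a trend of variance on the mean) and adjusted by Benjamini-Hochberg over all genes with a threshold of 0.05. Fold changes on this scale understate those of low genes. The 4 cultured groups shared 1 fit without a replicate block. Between irradiated cells with and without DL1 the 3 same-numbered pairs of libraries deviated together (correlations 0.145 to 0.348, against -0.248 to 0.043 for the 6 other pairs). This pairing comes from the data, not the labels. In no other comparison did all same-numbered pairs lie above all other pairs. Fresh cells came close, at 0.0572 to 0.211 against -0.223 to 0.0735. A fit of irradiated cells with and without DL1, with the number as a block, was therefore added after seeing the data. FPKM give no read counts, so depth was read only relatively, and 3 libraries a group limit the precision. The procedure was run on data simulated with independent normal noise, and the check made was on the median fold changes recovered. Spread shared between libraries and scaling were not part of that simulation. Tables were fitted separately.

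Members were matched to current mouse symbols by symbol (81) or synonym (5), lengths are medians of annotated coding transcripts in GENCODE (86.9% of cultured genes had one), and promoters come from RefSeq on GRCm38.p6. Correlations and figures used Python 3.11.15, scipy 1.17.1 and matplotlib 3.10.9. Named were called members (at most 12 by smallest p, or the 3 smallest where fewer passed), the fixed paralogs, CYCS and the SDH genes, the extremes of each complex and at most 4 called genes of each other list; further members were named after their values were seen. The members and lists were chosen with earlier results of these data known. Alternatives covered the pseudocount, the filter, 3 scalings (1 chosen after seeing the data), the trend, the replicate block and the libraries fitted. Values of some genes that enter the counts are not reported here.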

Additional observations from a re-analysis of the deposited data

How the results depend on the processing

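No direction of a called member or member median reversed under any alternative. With only the 2 compared groups in the fit, irradiation without DL1 gave 0 higher and 2 lower members, irradiation with DL1 gave 1 lower (COX4I2), and DL1 in irradiated cells gave 25 higher. COX4I2 was the 1 lower member with DL1 also with a pseudocount of 5, without rows named as ribosomal or small RNA, and without the 5 highest rows, the scaling chosen after seeing the data. Median-ratio scaling gave 15 higher members for DL1 in control and 19 for DL1 in irradiated cells, beside 1258 and 2029 higher genes over all 12025. Without the filter DL1 in control cells gave 1 lower member, NDUFA4L2. DL1 in irradiated cells gave 0 lower members at a mean of at least 5 FPKM and 2 (COX6B2 and COX7A2L) with each of the 3 scalings. Leaving out 1 library at a time, members numbered 1 to 4 higher and 5 to 28 lower for irradiation without DL1, 4 to 30 higher for DL1 in control, and 19 to 47 higher and 0 to 1 lower for DL1 in irradiated cells. Log2 ratios of summed FPKM that moved were, with median-ratio scaling, -0.00580 for complex I after irradiation with DL1, 0.021 for complex II with DL1 in control, 0.10 for complex I and 0.060 for complex III with DL1 in irradiated cells; complex II with DL1 in control was 0.026 under both other scalings. The cause of these shifts was not tested.

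Over all cultured groups, same-numbered libraries deviated together in only some pairs (correlations -0.168 to 0.348, 6 of 18 over 0.1), as in fresh cells (0.0572 to 0.211, 2 of 3 over 0.1). With a replicate block, irradiation without DL1 gave 3 higher and 16 lower members, DL1 in control 22 higher, DL1 in irradiated cells 39 higher and 1 lower, and the other comparisons 0. In the fit of irradiated cells with and without DL1 alone, where the pairs did deviate together, the replicate block gave 34 higher members and 1 lower, against 25 and 1 without the block. Relative depth is known, absolute depth is not, and low members such as COX4I2 lie near the filter.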
